A study of Homo sapiens with 18 samples.

Results

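The genes described here are 41 genes of ribosome biogenesis and MYC-driven growth, taken by symbol from the 58735 genes counted in both tables of raw counts. They fall into 5 roles: 10 genes of RNA polymerase I transcription and its nucleolar helpers, 8 of the small nucleolar ribonucleoproteins (snoRNPs) and RNA modification, 10 of small subunit processing, 11 of large subunit processing, and 2 enzymes of polyamine synthesis. All 41 were found in both tables and all 41 passed the filter on low counts in each. The genes were not chosen by a threshold on these values, but they were proposed with earlier results of the data known.

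The libraries come from A549 and H358, established human lines of lung adenocarcinoma. RAD21, the subunit that closes the ring of cohesin, was knocked down in both lines by a lentiviral short hairpin RNA (A549_shRAD21 and H358_shRAD21). The matching controls carried an empty vector and are labelled shNC (A549_shNC and H358_shNC, genotype wild type). In a separate batch, A549 cells overexpressing RAD21 (A549_RAD21OE) were set beside A549 cells with the empty vector (A549_EV, genotype wild type). Each of the 6 groups has 3 libraries, 18 in all. The labels do not give the hairpin sequence, the overexpression promoter, the time after transduction or whether the lines are clones. The title of the series concerns histone H3K4 trimethylation and ERK1/2 signalling, and the comparisons below ask what happened to the ribosome-making genes when the level of RAD21 was changed.

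Ribosomes are made in the nucleolus. RNA polymerase I transcribes the long precursor of ribosomal RNA, snoRNPs guide its methylation and pseudouridylation, and separate sets of processing factors cut, fold and pack it into the small and the large subunit. The transcription factor MYC is a textbook activator of these genes and of ODC1 and SRM, which make the polyamines that growing cells need, and it binds with its partner MAX to the E-box, a DNA word of the letters CACGTG.

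The E-box is therefore the sequence shown for these genes. RefSeq promoter windows (GRCh38.p14, 250 bases before to 50 bases after an annotated start) were present for 32 of the 41. Of these 32, 17 held CACGTG, which reads the same on both strands, or 53.1%, against 12.4% of the 10728 genes with a window that were tested in the overexpression and 8.77% of all 27305 genes with a window. In 7 of the 17 it lay before the start and in 11 after it, since ODC1 has one on each side. The stretches below are 30 bases each, written 5′ to 3′ on the gene's strand with the E-box in capitals. BYSL, RRP9, NAT10, PES1, SRM, PNO1, ODC1 and FBL are shown because they rose with RAD21 overexpression in the test given further on, UTP20 and GAR1 because they also hold the word but were not called in that test.
BYSL (chr6:41921515-41921544, plus strand): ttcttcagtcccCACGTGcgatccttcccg
RRP9 (chr3:51941892-51941921, minus strand): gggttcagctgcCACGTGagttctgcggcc
NAT10 (chr11:34105602-34105631, plus strand): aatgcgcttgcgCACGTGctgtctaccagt
PES1 (chr22:30591880-30591909, minus strand): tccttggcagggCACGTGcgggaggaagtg
SRM (chr1:11060200-11060229, minus strand): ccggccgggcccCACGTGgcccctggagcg
PNO1 (chr2:68157885-68157914, plus strand): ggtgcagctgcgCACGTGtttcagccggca
ODC1 before its start (chr2:10448024-10448053, minus strand): ccgggccccgggCACGTGtgcggcgcgcct
ODC1 after its start (chr2:10447990-10448019, minus strand): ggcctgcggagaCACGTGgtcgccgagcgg
FBL (chr19:39846356-39846385, minus strand): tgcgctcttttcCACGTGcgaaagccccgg
UTP20 (chr12:101280083-101280112, plus strand): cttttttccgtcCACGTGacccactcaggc
GAR1 (chr4:109815781-109815810, plus strand): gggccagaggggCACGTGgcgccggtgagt

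The word was present in 12 of the 23 members with a window that were called higher with overexpression and in 5 of the 9 that were not called. These 5 were DDX21, GAR1, GNL3, NOP2 and UTP20, of which NOP2 had too few counts to be judged. The split depends on the setting. Under a correction for GC content and exon length, given further on, DDX21, GNL3 and UTP20 were called higher. So was NPM1, which lacks the word, while NOP56, which also lacks it, was no longer called. In UTP20 it starts 10 bases before the start and in RRP9 5 bases before it, and the flanking letters differ from gene to gene. Other promoter words, searched on both strands, differed from the tested genes by fewer percentage points. The ETS core CCGGAAG was in 28.1% of the 32 members against 21.4% of the tested genes, the GC box GGGCGG in 75% against 76.3%, the CCAAT box CCAAT in 31.2% against 42.7%, and the TATA box TATAAA in 3.12% against 8.35%. Such matches describe letters in a window and say nothing of binding in these cells.

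Total counts ran from 15155077 to 19277568 in the 12 knockdown libraries and from 13024640 to 14276335 in the 6 overexpression libraries. RAD21 followed its labels: it fell in A549_shRAD21 (log2 fold change -1.08, SE 0.08, adjusted p = 2.995e-08), fell less far in H358_shRAD21 (-0.51, SE 0.08, adjusted p = 0.00067) and rose in A549_RAD21OE (2.85, SE 0.08, adjusted p = 2.90e-10, edgeR's quasi-likelihood test with Benjamini-Hochberg adjustment). The knockdown of RAD21 differed between the lines by 0.57 (SE 0.12, adjusted p = 0.0023), so the lines were not compared at equal loss. Replicate 3 stood apart in 2 groups. Its median absolute log2 difference from the other replicates was 0.304 and 0.313 in A549_shRAD21 and 0.231 and 0.269 in A549_RAD21OE, against at most 0.146 for any other pair. All 6 epithelial markers had counts in every group, at a summed level of 5506 to 16600 CPM (counts scaled to the size of the library) per library, while the leukocyte, fibroblast and endothelial lists summed to at most 11.9, 47.9 and 18.15 CPM and CD3E was at 0 in A549. Whether replicates were separate cultures is not in the labels, so a p-value reflects library-to-library spread that could be technical only.

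Overexpression of RAD21 in A549 was the comparison in which these genes moved as a body. Of the 41 members 31 rose and 0 fell at an adjusted p under 0.05, by 0.22 to 1.06 on the log2 scale, where 14.1% of all 15462 genes tested rose and 13.7% fell. The median member changed by 0.41 and the median gene by -0.01. By role, 9 of the 10 polymerase I genes rose, 5 of the 8 snoRNP genes, 8 of the 10 small subunit factors, 7 of the 11 large subunit factors and both polyamine enzymes. In 33 members all 3 RAD21OE libraries lay above all 3 EV libraries and in 0 below, against 22.9% and 22.6% of all genes. The median member stood 0.44, 0.40 and 0.47 above the EV mean in RAD21OE replicates 1, 2 and 3. As for 0 members lower, 0 were lower at an unadjusted p under 0.05. DESeq2 and limma-voom also called 0, where 11.6% and 14% of all genes were lower. In bulk RNA, fewer cells of a type and less RNA per cell cannot be told apart. The count of 31 was 38 without RAD21OE replicate 3, 19 without EV replicate 1 and 18 without EV replicate 2. In those fits 17.9%, 7.61% and 7.02% of all genes rose.

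**Figure D1:**
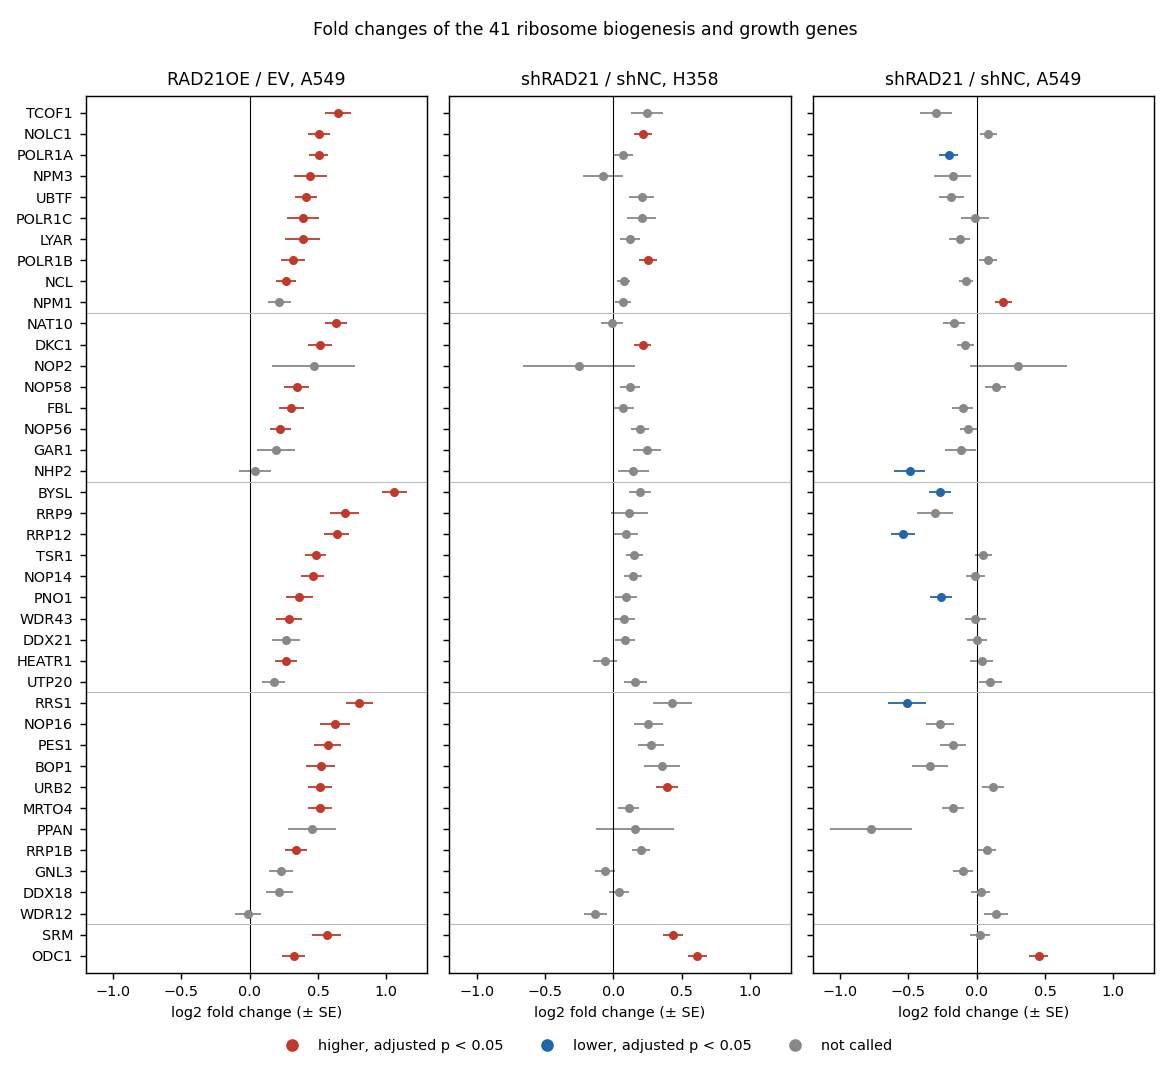
Log2 fold change (x axis, point) with its SE (bar) of each of the 41 members (y axis, grouped by role from RNA polymerase I at the top to polyamine synthesis at the bottom) in the 3 comparisons. Red points are higher and blue points lower at an adjusted p under 0.05: 31 red with overexpression, 6 red with knockdown in H358, and 2 red and 6 blue with knockdown in A549.

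Among the polymerase I genes, POLR1A (chromosome 2, 86020216 to 86106155, minus strand, hg38), the largest subunit of RNA polymerase I, was at 221.9, 221.8 and 223.1 CPM in the EV libraries and at 311.8, 308.3 and 325.5 CPM in the RAD21OE libraries. The groups did not overlap, and the rise was 0.50 (SE 0.07, adjusted p = 0.00027). TCOF1 (chromosome 5, 150357629 to 150400308, plus strand), the treacle protein that ties polymerase I to the processing machinery, had 155.5, 124 and 150.9 CPM with EV and 215.6, 219.1 and 238.2 CPM with RAD21OE. This was the largest rise of the role, at 0.64 (SE 0.09, adjusted p = 0.00037), with EV replicate 2 the lowest library. NOLC1, a nucleolar partner of treacle and of snoRNPs, rose from 231.9, 203.6 and 232.1 CPM to 327, 315.3 and 307.1 CPM (0.51, SE 0.08, adjusted p = 0.00057). POLR1B, the second-largest subunit, went from 59.06, 63.31 and 64.12 CPM to 70.64, 81.83 and 79.9 CPM (0.32, SE 0.09, adjusted p = 0.020). UBTF, which shapes the active ribosomal DNA, rose by 0.41, POLR1C by 0.39, LYAR by 0.39 and the histone chaperone NPM3 by 0.44.

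The abundant transcripts of the nucleolar proteins nucleolin and nucleophosmin moved less in this test. NCL, nucleolin, was at 1003, 958.2 and 1090 CPM with EV and at 1275, 1228 and 1167 CPM with RAD21OE, a rise of 0.27 (SE 0.07, adjusted p = 0.017). NPM1, nucleophosmin, had 931.8, 880.7 and 965.7 CPM against 1188, 1089 and 953.4 CPM. RAD21OE replicate 3 lay within the range of the EV libraries, and the difference of 0.22 was not called (SE 0.08, adjusted p = 0.070). Under the GC content and exon length correction described further on, NPM1 was called, at 0.40 (adjusted p = 2.55e-05). NPM1 had the highest counted level of the members per kilobase of exon in A549, at 241.9 CPM per kb in EV. NOP2 had the lowest, at 0.39 CPM per kb, with 54.41% of its exon sequence under another gene on the same strand.

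In the snoRNP role, NAT10 (chromosome 11, 34105602 to 34147670, plus strand), the acetyltransferase of 18S ribosomal RNA, led with 85.93, 82.19 and 89.54 CPM in EV and 134.9, 126.3 and 138.6 CPM in RAD21OE. The groups were well apart and the rise was 0.63 (SE 0.08, adjusted p = 0.00017). DKC1, dyskerin, the pseudouridine synthase of the box H/ACA particles, rose from 161.6, 150.8 and 189.7 CPM to 239.1, 230.9 and 246.7 CPM (0.51, SE 0.09, adjusted p = 0.0013). The other H/ACA proteins did not follow it to a call: GAR1 differed by 0.19 (SE 0.14) and NHP2 by 0.04 (SE 0.12). NHP2 had 64.72, 59.97 and 72.13 CPM with EV and 59.69, 62.95 and 79.61 CPM with RAD21OE, in overlapping ranges.

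Of the box C/D proteins, FBL, fibrillarin, the methyltransferase, had 288.8, 262.5 and 305.7 CPM with EV and 338.5, 321.9 and 398.5 CPM with RAD21OE. All 3 RAD21OE libraries were higher, and the rise was 0.31 (SE 0.09, adjusted p = 0.026). Its scaffold partners NOP58 and NOP56 rose by 0.34 and 0.22. NOP2, an rRNA cytosine methyltransferase, could not be judged: it had 1.546, 2.047 and 1.836 CPM with EV and 1.554, 3.447 and 2.547 CPM with RAD21OE, 21 to 46 counts per library. Of its exon sequence 54.41% lies under an overlapping gene on the same strand, which had 1 count over the 6 libraries.

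Small subunit processing held the largest single change. BYSL (chromosome 6, 41921188 to 41933046, plus strand), bystin, a late factor of the 40S precursor, had 36.15, 33.21 and 33.86 CPM with EV and 71.77, 67.6 and 75.75 CPM with RAD21OE. Every RAD21OE library was far above every EV library, the fold was 2.08 and the log2 fold change 1.06 (SE 0.09, adjusted p = 7.81e-06). RRP12 (chromosome 10, 97356358 to 97426076, minus strand), a factor in the export of pre-ribosomes, rose from 96.02, 94.77 and 110.2 CPM to 150.8, 146.8 and 170.3 CPM (0.64, SE 0.09, adjusted p = 0.00034). PNO1, which acts with the nuclease that trims 18S RNA, went from 61.26, 55.73 and 61.99 CPM to 85.2, 77.64 and 67.31 CPM, a smaller rise of 0.36 (SE 0.10, adjusted p = 0.018) with replicate 3 nearest to the controls.

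The U3 snoRNP protein RRP9 rose by 0.69 (SE 0.11), TSR1 by 0.48, NOP14 by 0.46, WDR43 by 0.29 and HEATR1 by 0.26. DDX21 and UTP20 had estimates of 0.27 and 0.17 that did not pass (adjusted p = 0.066 and 0.15).

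Among the large subunit factors, RRS1 (chromosome 8, 66429028 to 66430733, plus strand), part of the 5S particle assembly, had 57.8, 49.89 and 60.01 CPM with EV and 98.69, 89.48 and 104.4 CPM with RAD21OE. The groups were separate and the rise was 0.80 (SE 0.10, adjusted p = 0.00012). URB2 had 41.75, 40.41 and 41.06 CPM against 58, 59.2 and 58.65 CPM, with almost no spread inside either group, and rose by 0.51 (SE 0.09, adjusted p = 0.0011). NOP16 rose by 0.63, MRTO4 by 0.51 and RRP1B by 0.34. PES1 and BOP1, which form the PeBoW complex with WDR12, rose by 0.57 and 0.52, while WDR12 itself differed by -0.01 (SE 0.10). GNL3, nucleostemin, and the helicase DDX18 had estimates of 0.23 and 0.22 that did not pass. PPAN had 0.45 (SE 0.17, adjusted p = 0.068) from 60 to 111 counts per library, and 59.78% of its exon sequence lies under genes on the same strand.

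The polyamine enzymes both rose. SRM, spermidine synthase, was at 100.1, 87.34 and 100.4 CPM with EV and at 124.9, 135.9 and 164.8 CPM with RAD21OE (0.56, SE 0.11, adjusted p = 0.0021). ODC1, ornithine decarboxylase, the first and rate-limiting step, had 181.4, 164.2 and 205.4 CPM against 224.2, 232.8 and 231.2 CPM, a rise of 0.32 (SE 0.09, adjusted p = 0.016). In both genes every RAD21OE library exceeded every EV library. The rise of ODC1 was not called without EV replicate 2 (adjusted p = 0.098).

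Of the 31 genes that rose, 18 were called under all 15 alternatives tried, among them BYSL, RRS1, RRP9, RRP12, TCOF1, NAT10 and POLR1A. Strandedness is not stated, so exon sequence opposite another gene makes some counts less certain. Among the 31 this share was 23.15% for HEATR1, 20.85% for TSR1, 19.95% for NOP16, 18.18% for POLR1C and 17.1% for NOP14. Without EV replicate 2, the calls of FBL, HEATR1, LYAR, NCL, NOP56, NOP58, NPM3, ODC1, PNO1, POLR1B, POLR1C, RRP1B and WDR43 were lost, from an adjusted p of 0.059 for RRP1B to 0.20 for NOP56 in edgeR's quasi-likelihood test.

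**Figure D2:**
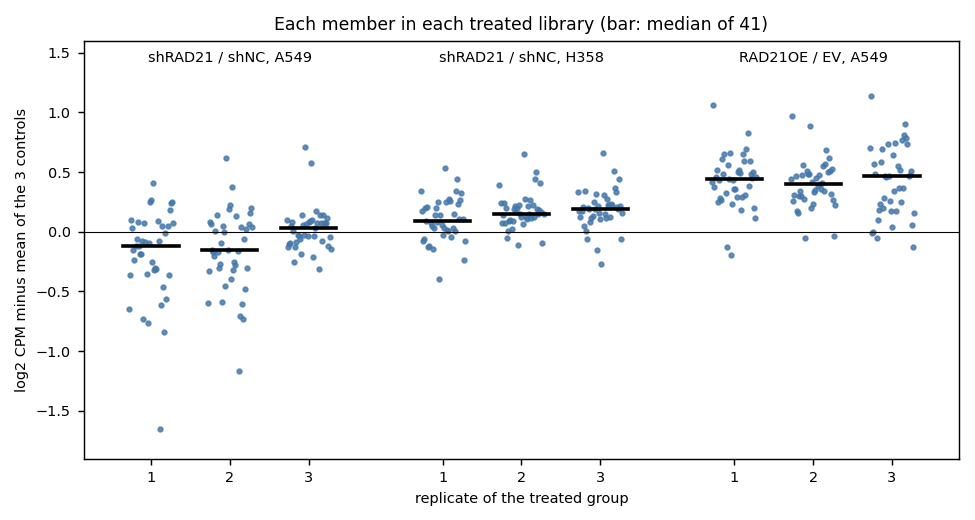
Log2 difference (y axis) of each of the 41 members (points) from the mean of its 3 control libraries, in each treated library (x axis, replicate number), with the median of the 41 as a bar. The medians are 0.44, 0.40 and 0.47 with overexpression, 0.09, 0.15 and 0.19 with knockdown in H358, and -0.12, -0.16 and 0.03 with knockdown in A549, where replicate 3 differs in sign from the other libraries.

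Knockdown of RAD21 in H358 left most of these genes close to control, with a small upward shift. Of the 41 members 6 rose (ODC1, SRM, URB2, POLR1B, NOLC1 and DKC1) and 0 fell, where 3.78% of all 18939 genes tested rose and 4.62% fell. At an unadjusted p under 0.05, 17 were higher and 0 lower, a threshold at which all genes were not counted. DESeq2 called 9 higher and 0 lower, where 4.98% of all genes were higher and 5.65% lower. With limma-voom 8 and 0 were called, where the shares were 4.29% and 5.34%. The median member differed by 0.15 and the median gene by 0.00. In 24 members all 3 shRAD21 libraries lay above all 3 controls and in 0 below, against 18% and 18.1% of all genes. Leaving out any 1 of the 6 H358 libraries left 3 called, where 1.78% to 1.98% of all genes rose. A fit on these 6 libraries alone called 19, where 12.7% of all genes rose.

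The polyamine enzymes changed most. ODC1 was at 87.54, 84.56 and 87.49 CPM with shNC and at 125, 135.7 and 136.8 CPM with shRAD21, a rise of 0.62 (SE 0.07, adjusted p = 3.88e-05). SRM went from 75.94, 80.05 and 80.19 CPM to 106.7, 111.3 and 101.4 CPM (0.44, SE 0.07, adjusted p = 0.0012). In both genes the groups were far apart for their spread, and both were called under all 16 alternatives. URB2, a large subunit factor, was the only other member called under all of them: it rose from 35.58, 37.58 and 34.53 CPM to 45.03, 47.67 and 48.89 CPM (0.39, SE 0.08, adjusted p = 0.0058).

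POLR1B had 75.66, 75.3 and 72.95 CPM with shNC and 90.12, 86.61 and 90.11 CPM with shRAD21 (0.25, SE 0.07, adjusted p = 0.024). NOLC1 rose from 146.3, 151.8 and 140.4 CPM to 167.4, 169.5 and 173.1 CPM (0.22, SE 0.06, adjusted p = 0.038) and DKC1 from 141.9, 146.1 and 141.7 CPM to 164.5, 169.2 and 165.2 CPM (0.22, SE 0.06, adjusted p = 0.045). These folds of 1.16 to 1.19 are small, and they were called in 7 or 8 of the 16 alternatives. Transcripts of 4 other genes stayed near control: POLR1A differed by 0.07, FBL by 0.07, NCL by 0.08 and NPM1 by 0.07, each with an SE of 0.05 to 0.08. No small subunit factor was called, with estimates from -0.06 for HEATR1 to 0.19 for BYSL.

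Knockdown of RAD21 in A549 changed a few members in each direction. Of the 41, 6 fell (RRP12, NHP2, RRS1, PNO1, BYSL and POLR1A) and 2 rose (ODC1 and NPM1), where 10.9% of all 18939 genes tested fell and 14.4% rose. The share that fell, 6 of 41, is near the background, and the share that rose, 2 of 41, is below it. The median member differed by -0.08 and the median gene by 0.00. In 6 members all 3 shRAD21 libraries lay below all 3 controls and in 2 above, against 14.4% and 18.3% of all genes. Replicate 3 decided much of this: without it 19 members fell and 5 rose, beside 19.9% and 23.2% of all genes. Only 2 fell without shRAD21 replicate 1, without shRAD21 replicate 2 or without shNC replicate 1, beside 7.22% to 7.44% of all genes. The count that rose was 1 without either of those shRAD21 replicates and without shNC replicate 2 or 3, beside 10.2% to 11%.

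The pre-ribosome export factor RRP12 fell most firmly, from 151.4, 141.8 and 146.4 CPM to 95.41, 89.72 and 117.9 CPM (-0.54, SE 0.09, adjusted p = 0.00015). RRS1 had 101, 94.01 and 88 CPM with shNC and 52.54, 56.83 and 89.49 CPM with shRAD21 (-0.51, SE 0.14, adjusted p = 0.010). Its replicate 3 lay inside the control range, and the fall was not called without shRAD21 replicate 1 or 2 (adjusted p = 0.059 and 0.057), without shNC replicate 1 (0.051) or with only the 6 libraries of the line (0.056). NHP2 (chromosome 5, 178149460 to 178153967, minus strand) fell from 73.93, 74.34 and 66.32 CPM to 42.88, 47.5 and 62.63 CPM (-0.49, SE 0.11, adjusted p = 0.0036). Counts of NHP2 are less certain, since strandedness is not stated and 27.42% of its exon sequence lies opposite another gene. RRP12 and NHP2 were called in all 16 alternatives.

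The other falls were smaller. PNO1 went from 90.22, 82.57 and 82.54 CPM to 68.81, 71.12 and 73.27 CPM (-0.26, SE 0.08, adjusted p = 0.020), with 10.43% of its exon sequence opposite another gene, and it was not called without shNC replicate 1 (adjusted p = 0.11) or shRAD21 replicate 1 or 2 (0.068 and 0.054). BYSL had 49.65, 50.25 and 47.54 CPM with shNC and 38.29, 39.18 and 45.05 CPM with shRAD21 (-0.27, SE 0.08, adjusted p = 0.020). POLR1A had 294, 280.1 and 305.2 CPM against 235.6, 242 and 285 CPM, with replicate 3 inside the control range (-0.21, SE 0.07, adjusted p = 0.042). BYSL and POLR1A were each called in 10 of the 16 alternatives, and neither was called without shRAD21 replicate 1 (adjusted p = 0.089 and 0.18) or replicate 2 (0.083 and 0.16), or without shNC replicate 1 (0.067 and 0.11) or replicate 2 (0.076 and 0.054), nor POLR1A without shNC replicate 3 (0.15). TCOF1 was not called, at 238.1, 225.6 and 217.5 CPM with shNC and 153.6, 162.7 and 238.8 CPM with shRAD21 (-0.30, SE 0.12, adjusted p = 0.076). Its replicates 1 and 2 lay below every control and its replicate 3 above every control.

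ODC1 rose here too, from 244.5, 232.1 and 214.5 CPM to 306.1, 297.6 and 342.7 CPM (0.45, SE 0.07, adjusted p = 8.98e-05), with every shRAD21 library above every control and a call in all 16 alternatives. SRM did not follow: it had 147.4, 133.8 and 127.3 CPM with shNC and 135, 130.6 and 149.5 CPM with shRAD21 (0.02, SE 0.07). NPM1 was at 1170, 1119 and 1109 CPM with shNC and at 1365, 1323 and 1200 CPM with shRAD21, all 3 above the controls (0.19, SE 0.06, adjusted p = 0.022), and was called in 8 of the 16 alternatives, not without shRAD21 replicate 1 or 2 or shNC replicate 2 or 3 (adjusted p from 0.074 to 0.11). NCL differed by -0.08 (SE 0.05), FBL by -0.10 (SE 0.08), NAT10 by -0.16 (SE 0.08) and DKC1 by -0.08 (SE 0.06), none of them called.

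**Figure D3:**
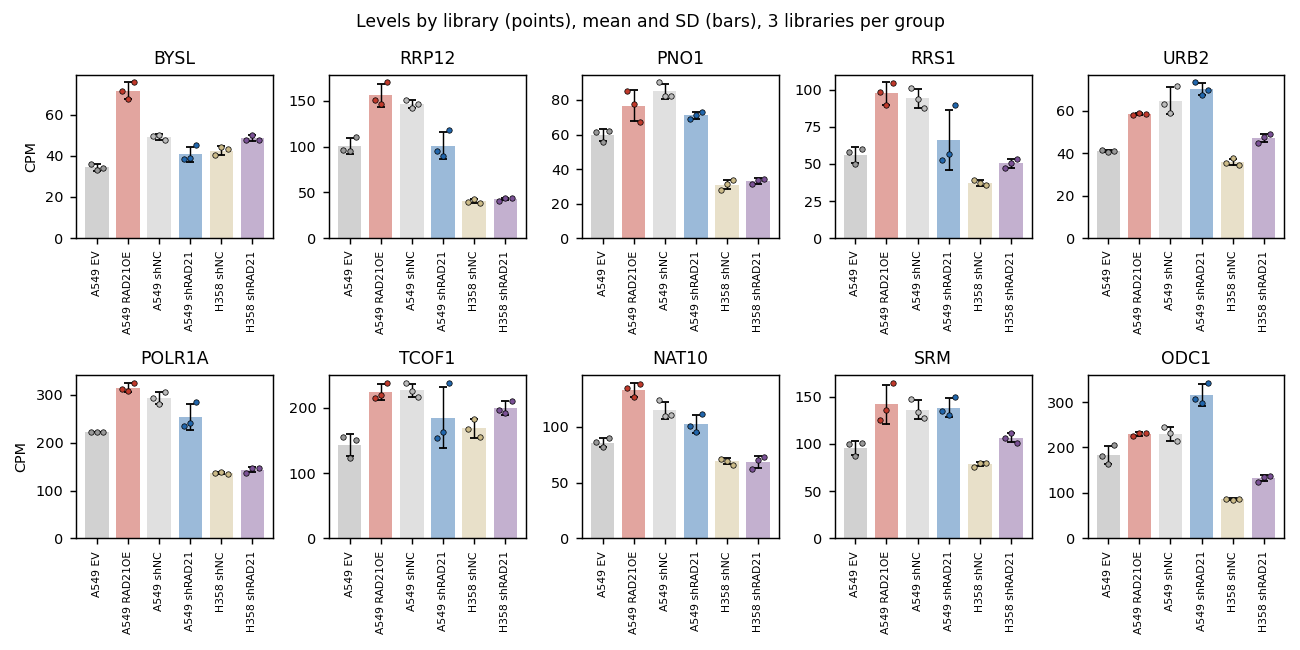
Level in CPM (y axis, from 0) of 10 members in each library (points) of the 6 groups (x axis), with bars for the mean and error bars for the SD of 3 libraries; EV and RAD21OE were counted in a separate table from the 4 shRNA groups. BYSL doubles with RAD21OE (34.4 to 71.7 CPM), while ODC1 is higher in RAD21OE and in both shRAD21 groups than in the matching controls.

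The response to knockdown was also tested between the lines, as the H358 change minus the A549 change. This contrast uses the same libraries as the knockdown comparisons. It was higher for 12 members (UBTF, TCOF1, DKC1, NHP2, RRP12, BYSL, PNO1, RRS1, NOP16, BOP1, PES1 and SRM) and lower for 0, by 0.30 to 0.94, against 7.61% higher and 9.94% lower of all genes. At an unadjusted p under 0.05, 21 were higher and 1, WDR12, lower, a threshold at which all genes were not counted. DESeq2 and limma-voom each called 13 higher and 0 lower. In those fits 8.55% and 8.35% of all genes were higher, and 10.9% and 9.67% lower. RRS1 differed most, by 0.94 (SE 0.20, adjusted p = 0.0030): the estimate was 0.43 in H358, from 39.41, 37.34 and 35.49 CPM to 47.39, 50.96 and 53.16 CPM, and -0.51 in A549. RRP12 differed by 0.63 (SE 0.13, adjusted p = 0.0022), with 39.41, 42.52 and 38.36 CPM in H358_shNC and 40.9, 43.51 and 43.74 CPM in H358_shRAD21 beside its fall in A549. BYSL differed by 0.46 (SE 0.11, adjusted p = 0.0089), with 40.25, 44.19 and 43.21 CPM against 47.96, 50.21 and 47.94 CPM in H358. ODC1 rose in both lines and its difference of 0.16 (SE 0.10) was not called. Under the GC content and exon length correction described further on, BYSL, PES1 and SRM were no longer called between the lines (adjusted p = 0.16, 0.050 and 0.87), and the estimate for SRM was -0.04. The count of 12 was 24, with 2 lower, without A549 shRAD21 replicate 3, 7 without its replicate 1, and 6 without its replicate 2 or without A549 shNC replicate 1. In those fits 17.9%, 5.16%, 4.97% and 4.76% of all genes were higher, and 19.6% were lower in the first.

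Set side by side, the 3 comparisons sort the members into a few patterns of calls. ODC1 alone was called higher in all 3. POLR1B, NOLC1, DKC1, URB2 and SRM were called higher with overexpression in A549 and with knockdown in H358. POLR1A, RRP12, BYSL, PNO1 and RRS1 were called lower with knockdown and higher with overexpression in A549. Among these genes, only RRP12 was called lower with knockdown in all 16 alternatives. A further 20 members were called higher with overexpression alone, NPM1 higher and NHP2 lower with knockdown in A549 alone, and 8 (DDX18, DDX21, GAR1, GNL3, NOP2, PPAN, UTP20 and WDR12) in no comparison. Of these, NPM1, DDX18, DDX21, GNL3 and UTP20 were called higher with overexpression under the GC content and exon length correction. Between the knockdowns, 23 members had an estimate below 0 in A549 and above 0 in H358, and 12 were above 0 in both. How many of all genes show these patterns or signs was not counted.

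MYC itself rose with overexpression and was not called with knockdown. It had 108.7, 103.6 and 120.6 CPM with EV and 136.8, 124.9 and 150.1 CPM with RAD21OE, all above the controls (0.31, SE 0.09, adjusted p = 0.026, not called without EV replicate 2 at an adjusted p of 0.13). With knockdown it differed by 0.09 in A549 (SE 0.07) and by 0.09 in H358 (SE 0.08), neither called. Its level in H358_shNC was 35.47, 31.4 and 32.43 CPM, against 186.7, 166.5 and 163.9 CPM in A549_shNC. In the MYC network list, of 11 genes tested with overexpression 2 rose (MYC and MLX, a MAX-like partner, by 0.47) and 3 fell, among them the MAX-binding repressors MXD4 (-0.52, adjusted p = 0.0022) and MXD3 (-0.49, adjusted p = 0.035), beside 14.1% and 13.7% of all genes. With knockdown 1 of 11 rose in each line, MLXIP in A549 (0.22) and MXD4 in H358 (0.34), beside 14.4% and 3.78% of all genes.

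The remaining genes of the pathway were taken from lists assembled by role, and are given first with overexpression. Of 44 other small subunit factors 27 rose and 0 fell, with a median of 0.31, the smallest adjusted p belonging to AATF (0.64, adjusted p = 0.00017) and UTP14A (0.58, adjusted p = 0.00052). Of 48 other large subunit factors 30 rose and 1 fell, with a median of 0.37. DDX56, a nucleolar helicase, rose from 116.5, 109 and 111.3 CPM to 186.6, 189.4 and 210.2 CPM (0.80, adjusted p = 2.90e-05), and NLE1 by 0.67. NOP53, which brings the RNA exosome to the large subunit precursor, fell from 263.2, 253.2 and 272 CPM to 176, 164.3 and 199.6 CPM (-0.55, adjusted p = 0.00060).

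Of 12 other polymerase I genes 6 rose and 0 fell, among them MYBBP1A (0.48, adjusted p = 0.00065) and POLR1E (0.48, adjusted p = 0.0030). Of 14 other snoRNP and assembly genes 6 rose, among them FTSJ3 (0.51) and RUVBL1 (0.50), and 1 fell, PIH1D1 (-0.32). Of 13 snoRNA host genes 2 rose, SNHG12 (0.72) and SNHG7 (0.47). Beside these counts stand the 14.1% of all genes that rose and the 13.7% that fell.

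With knockdown in A549, 4 of 44 small subunit factors fell, among them WDR46 (-0.50) and NOB1 (-0.30), and 0 rose. Of 48 large subunit factors 8 fell, among them EBNA1BP2 (-0.49, adjusted p = 0.00019) and PAK1IP1 (-0.52), and 0 rose. Of 13 snoRNA host genes 2 rose, SNHG1 (0.25) and GAS5 (0.26), and 0 fell. Of 14 snoRNP genes 2 fell (FTSJ3 and RUVBL1), and of 12 polymerase I genes POLR1D rose (0.27) and TAF1C fell (-0.25). Of all genes 10.9% fell and 14.4% rose. With knockdown in H358, 4 of 44 small subunit factors rose, among them RRP36 (0.45) and UTP4 (0.30), 2 of 48 large subunit factors rose (LSG1 and POP1) and 1 fell (RSL24D1, -0.45), beside 3.78% of all genes that rose and 4.62% that fell.

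The polyamine genes outside the members moved unevenly. SAT1, which acetylates polyamines for export and breakdown, fell with knockdown in A549 from 287.7, 311.7 and 290.4 CPM to 143.2, 131.6 and 118.7 CPM (-1.18, SE 0.08, adjusted p = 2.70e-09). It also fell with overexpression, from 476.6, 533.8 and 436.9 CPM to 283, 321.9 and 296.3 CPM (-0.68, adjusted p = 0.00016), and it differed by 0.04 in H358. SMS, spermine synthase, rose with knockdown in A549 (0.41, adjusted p = 7.54e-05). OAZ2, an antizyme that targets ornithine decarboxylase, fell with overexpression (-0.50, adjusted p = 0.00068). Of the 32 growth metabolism genes as a whole, 13 rose and 4 fell with overexpression, CTPS1 of pyrimidine synthesis rising most surely (0.69) and the purine enzyme GART by 0.50, beside 14.1% and 13.7% of all genes. With knockdown in A549 6 rose, among them MTHFD1 (0.31), and 4 fell, among them CTPS1 (-0.33), close to the 14.4% and 10.9% of all genes. In H358 2 rose, RCC1 (0.28) and EIF2S1 (0.21), and 1 fell, MTHFD2 (-0.43), beside 3.78% and 4.62% of all genes.

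The fold changes of the members ran along the GC content of their exons. Their GC content spans 39.22% to 65.17%, with a median of 50.8% beside 48.56% for all genes tested with overexpression. Across the 41, which share libraries, Spearman's rho between GC content and log2 fold change was 0.66 with overexpression, 0.36 with knockdown in H358, -0.60 with knockdown in A549 and 0.71 for the difference between the lines. Over all genes tested it was 0.31, 0.19, -0.33 and 0.36. The 14 members of lowest GC content had a median change of 0.26 with overexpression, the 13 in the middle 0.48 and the 14 of highest GC content 0.54.

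After a correction of each library's trend on GC content and exon length, overexpression gave 35 members higher and 0 lower, with a median of 0.41. Of all genes 20.6% were then higher and 17.7% lower. Knockdown in H358 gave 16 higher, beside 8.92% of all genes. Knockdown in A549 gave 2 higher and 8 lower, beside 17.1% and 12.2%, and the difference between the lines 20 higher, beside 9.27%. Single genes moved more. With overexpression NPM1 went from 0.22 to 0.40 (adjusted p = 2.55e-05 in edgeR's quasi-likelihood test). DDX21, DDX18, GNL3 and UTP20 were also called higher there (0.37, 0.36, 0.28 and 0.28). The rise of NOP56 was no longer called (0.14, adjusted p = 0.081). In A549 knockdown the fall of BYSL went from -0.27 to -0.05 (adjusted p = 0.60), the rise of NPM1 from 0.19 to 0.05 (adjusted p = 0.46), and SRM from 0.02 to 0.35 (adjusted p = 0.00052). The fall of RRP12 stayed at -0.41 and that of NHP2 at -0.36.

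**Figure D4:**
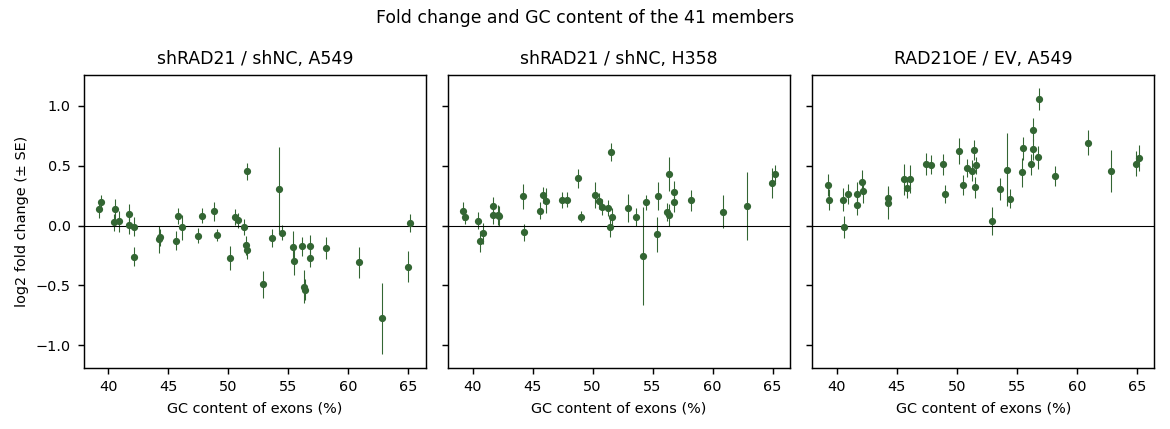
Log2 fold change with its SE (y axis) against GC content of the exons in percent (x axis) for the 41 members (points) in each comparison. With overexpression the points climb from left to right (rho 0.66) and all but WDR12 lie above 0, while with knockdown in A549 they descend (rho -0.60).

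Markers of cell state moved beside these changes in A549. The summed level of the 6 epithelial markers was 9567 to 10080 CPM in A549_shNC and 12550 to 15800 CPM in A549_shRAD21, and 11120 to 11410 CPM in A549_EV against 12840 to 16600 CPM in A549_RAD21OE. In H358 the sum was 5506 to 5867 CPM in shNC and 5647 to 5854 CPM in shRAD21. With overexpression 2 of the 6 rose, KRT18 and KRT8 (0.54 and 0.49), and 1 fell, CDH1 (-0.36), beside 14.1% and 13.7% of all genes. With knockdown in A549, 5 rose, among them KRT18 and CDH1 (0.84 and 1.13), and 1 fell, KRT7 (-0.80), beside 14.4% and 10.9%. With knockdown in H358, 1 rose and 0 fell, beside 3.78% and 4.62%. Their part in the changes of the ribosome genes was not tested.

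Levels were also followed across the 18 libraries, each centred on the mean of its line and batch. DKC1 followed the mean of the other 40 most closely (Pearson's r = 0.976, a description over libraries that share groups), and PES1, MRTO4, NOP14 and NOP16 were also above 0.94. NPM1, UTP20 and NOP2 were below 0.40, and WDR12 was the only member with a negative value (r = -0.31). Among the 15265 genes compared, those outside the lists with the closest likeness to the members' mean were PRPF4 (r = 0.96), CYR61 (0.95), LETM1 (0.95), GRPEL1 (0.95) and SMAD6 (0.95).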

How the data were processed

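Total RNA was extracted with TRIzol and made into libraries with a VAHTS Universal V6 kit, per the labels' protocols. The deposited values are raw counts per gene in 2 tables, made by the authors with fastp, HISAT2 2.0.5 and featureCounts 1.5.0-p3 on hg38, per the submitters' processing notes, which give no roles. Strandedness is not stated in these sources. All counts were whole numbers, and gene positions equal those of GENCODE release 29. The labels put the tables in separate batches, so each was fitted on its own and no test crosses them.

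The members and lists were chosen with earlier results of these data known. Counts were tested with edgeR 4.0.16 (R 4.3.3): filterByExpr, TMM scaling, 1 mean per group and the quasi-likelihood F-test, two-sided, with Benjamini-Hochberg adjustment over all genes tested. A gene is called, or said to rise or fall, at an adjusted p under 0.05. Knockdown tests use all 12 libraries of both lines, so the spread is pooled. SE is the fold change over the root of F. The scripts were tested on simulated counts.

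Alternatives were DESeq2 1.42.0 size factors and Wald test, limma 3.58.1 voom, no filter, at least 10 CPM in 3 libraries, robust dispersion, only a line's 6 libraries, all 18 in 1 fit, a replicate block, a GC content and exon length correction, and each library left out. Every member may be named. Full values per library were given for the 2 members of each role with the smallest adjusted p among those called in each comparison, for ODC1, for the 3 with the smallest adjusted p between the lines, for POLR1A, FBL, NCL and NPM1, and for the highest and lowest level per kilobase. From other lists up to 2 called genes per direction were named, beside MYC. Figures used Python with matplotlib.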

Additional observations from a re-analysis of the deposited data

Results flagged for a closer look

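The effect of knockdown differed between the lines, by the test of the difference itself, for 12 members, the H358 change being the higher in each. In RNA polymerase I transcription these were UBTF (0.3964) and TCOF1 (0.5422), and among the snoRNP genes DKC1 (0.2991) and NHP2 (0.6381). Among the small subunit factors they were RRP12 (0.6274), BYSL (0.4628) and PNO1 (0.353). Among the large subunit factors they were RRS1 (0.9442), NOP16 (0.5288), BOP1 (0.6983) and PES1 (0.4486), and among the polyamine enzymes SRM (0.4128). All values are differences of log2 fold changes at an adjusted p under 0.05 in edgeR's quasi-likelihood test. RAD21 itself was lowered less in H358 than in A549. Exon sequence opposite another gene makes the counts of NHP2 (27.42%), NOP16 (19.95%) and PNO1 (10.43%) less certain. BOP1, NHP2, RRP12 and RRS1 were called under all 21 alternatives. Under the GC content and exon length correction BYSL (0.19, adjusted p = 0.16) and PES1 (adjusted p = 0.050) were not called, and SRM changed sign (-0.04, adjusted p = 0.87). UBTF and PNO1 were called in 10 of the 21 alternatives, and TCOF1, DKC1 and PES1 in 13.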

How the results depend on the processing

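With overexpression 31 members rose as reported, and 30 to 35 did under the other scalings, tests, blocks and corrections apart from 27 of 39 tested at 10 CPM in 3 libraries. Leaving out 1 library gave 18 to 38. With knockdown in A549, as reported 2 rose and 6 fell. Without a filter 1 rose and 12 fell, limma-voom gave 10 lower, only the line's 6 libraries gave 1 higher and 3 lower, all 18 libraries gave 1 higher, and leaving out 1 library gave 1 to 5 higher and 2 to 19 lower. With knockdown in H358 the 6 higher became 16 under the GC content and exon length correction, 19 with only the line's 6 libraries, and 3 whichever library was left out. The 12 members that differed between the lines became 20 under the GC content and exon length correction, and 6 to 24 higher and 0 to 2 lower when 1 library was left out. The share of all genes called moved with the setting too. Higher were 6.94% to 20.6% with overexpression, 6.22% to 23.2% in A549 knockdown, 1.78% to 12.7% in H358 and 4.76% to 17.9% between the lines. Lower in A549 knockdown were 6.59% to 19.9%. The cause was not tested.

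The replicate block gave 31 members higher with overexpression, 3 in H358 instead of 6, 2 higher and 7 lower in A549, and 9 between the lines. Of all genes 14%, 2.4% and 6.28% were then higher with overexpression, in H358 and between the lines. In A549 knockdown 12.6% were higher and 9.85% lower. After centring on the group mean, same-numbered libraries correlated at -0.01, -0.023 and -0.037 in A549 knockdown and 0.052, 0.007 and 0.022 in H358. With overexpression the values were -0.002, 0.067 and 0.035. Libraries of different number correlated at -0.051 to 0.034. With 3 libraries per group such values cannot settle whether same-numbered libraries were paired.

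Under the GC content and exon length correction, estimates changed sign for 12 members in A549 knockdown, 1 in H358, 2 with overexpression and 7 between the lines. Those called before or after were DDX18 in A549 knockdown (-0.15, adjusted p = 0.019), NOP58 (0.20) and SRM (-0.039) for the difference between the lines. Low counts limit NOP2 and PPAN, at 12 to 38 and 24 to 90 per knockdown library. Of their exon sequence 54.41% and 59.78% lies under genes on the same strand. Whether this lowers their counts was not tested.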

Other observations

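The protein components of the ribosome were grouped by symbol after the data had been seen. Of 86 cytosolic ribosomal protein genes tested with overexpression, 6 rose and 1 fell, with a median of 0.04, where 14.1% of all genes rose and 13.7% fell. Of 77 mitochondrial ribosomal protein genes, 30 rose and 1 fell, with a median of 0.23. With knockdown in A549, 12 of the 86 cytosolic genes fell and 4 rose, beside 10.9% and 14.4% of all genes. In H358 7 fell, RPL5 (-0.33) among them, and 1 rose, beside 4.62% and 3.78%.

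PWP2, a U3 snoRNP protein named after its values were seen, had 0.5154, 0.4549 and 0.8814 CPM with EV and 6.075, 7.719 and 1.31 CPM with RAD21OE (3.00, SE 0.56, adjusted p = 0.0020 in edgeR's quasi-likelihood test). In H358 it stood at 19.93 to 24.59 CPM in shNC, so its level in A549 is low and RAD21OE replicate 3 is the nearest to the controls.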
